A study of Mus musculus with 36 samples.

Results

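BtdCPU, a diarylurea known as an activator of the eIF2 alpha kinase HRI, was given on its own to mouse embryonic fibroblasts that lack the kinase PERK, and the treated cells were compared with cells of the same genotype that received the solvent DMSO. The comparison rests on 6 of the 36 bulk RNA-seq libraries of the series, the 3 labelled PERK -/- with BtdCPU and the 3 labelled PERK -/- with the vehicle, and it was read across 16065 tested genes. The series crosses 2 genotypes (WT and PERK -/-) with 6 treatments, 3 replicates in each of 12 groups. Besides DMSO and BtdCPU the treatments include thapsigargin (Tg, which blocks the calcium pump of the endoplasmic reticulum, ER) and halofuginone (an inhibitor of prolyl-tRNA synthetase that activates the kinase GCN2). The remaining treatments are BtdCPU together with Tg and halofuginone together with Tg. Every PERK-null group, the DMSO controls included, carries the PERK deletion. The labels give no dose, treatment time, clone number, passage or animal of origin, and nothing says that replicates came from separate cultures. The p-values here rest on the spread between replicates within all 12 groups of the 36 libraries, WT groups included, and not on the 6 libraries alone. That spread may be technical.

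Phosphorylated eIF2 alpha slows general translation and favours translation of the transcription factor ATF4, which raises genes for amino acid synthesis, amino acid import, tRNA charging and stress adaptation. This programme is the integrated stress response (ISR). Its 4 kinases sense different stresses: PERK senses unfolded protein in the ER, GCN2 uncharged tRNA, PKR double-stranded RNA, and HRI haem shortage and, through the protease OMA1 and its substrate DELE1, mitochondrial stress. PERK-null cells lack the ER sensor, which makes them a test bed for a compound that acts through another kinase.

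The 6 libraries held 35034352 to 36096025 counts each, and 13568 to 13652 genes had at least 10 counts in a library. Summed CPM (counts scaled to a common library size, with TMM factors) of 10 fibroblast markers lay between 12480 and 14553 with BtdCPU and between 12968 and 14358 with DMSO. Markers of epithelial, endothelial, leukocyte, pluripotent and muscle cells each summed to at most 3.32 CPM in any of the 6 libraries, and Epcam, Krt5, Cd3e, Pou5f1 and Myod1 had 3 counts or fewer in all of them. No marker gene of any of these lists passed the test between BtdCPU and DMSO. Eif2ak3, the gene of PERK, stood at 8.62, 9.22 and 8.09 CPM with BtdCPU and at 9.37, 9.67 and 10.8 CPM with DMSO, against 30.3, 32.4 and 30.7 CPM in the WT DMSO libraries, so its transcript was reduced and still read. BtdCPU left it with a log2 difference of -0.20 (SE 0.19, edgeR adjusted p 0.70). The lines also differ beyond PERK. Xist, the RNA of the inactive X chromosome, was looked at after its values were seen and stood at 443 to 518 CPM in the 6 PERK-null libraries and at 0 in the WT ones, while the Y-linked Ddx3y stood at 88.1 to 118 CPM in the 6 WT libraries that received BtdCPU or DMSO.

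BtdCPU raised the genes of the ISR and lowered those of sterol synthesis in PERK-null fibroblasts. Of 16065 genes, 577 passed an edgeR adjusted p of 0.05 (3.59%), 410 higher (2.55%) and 167 lower (1.04%). Of these, 111 rose and 23 fell at least 2-fold. By the naming rule the largest rises were those of Trib3, Adm2, Car6, Gadd45a, Acot2 and Chac1, and the deepest falls belonged to Cyp1b1, Hmgcs1, LOC102635781, Txnip, Gm15441 and Idi1. Adm2 and Car6 stood at no more than 5.43 CPM in the 6 libraries and meet the rule's minimum level, a mean over all 36 libraries, through other groups of the series. The count of calls depended on the fit, with 326 to 405 genes when 1 of the 6 libraries was left out and 1265 when only these 6 libraries were fitted. The share of calls that were higher was 71.1% in the fit over all libraries and 59.5% in the fit of these 6. Cells were measured in bulk, so fewer cells of a state and less RNA per cell cannot be told apart.

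**Figure D1:**
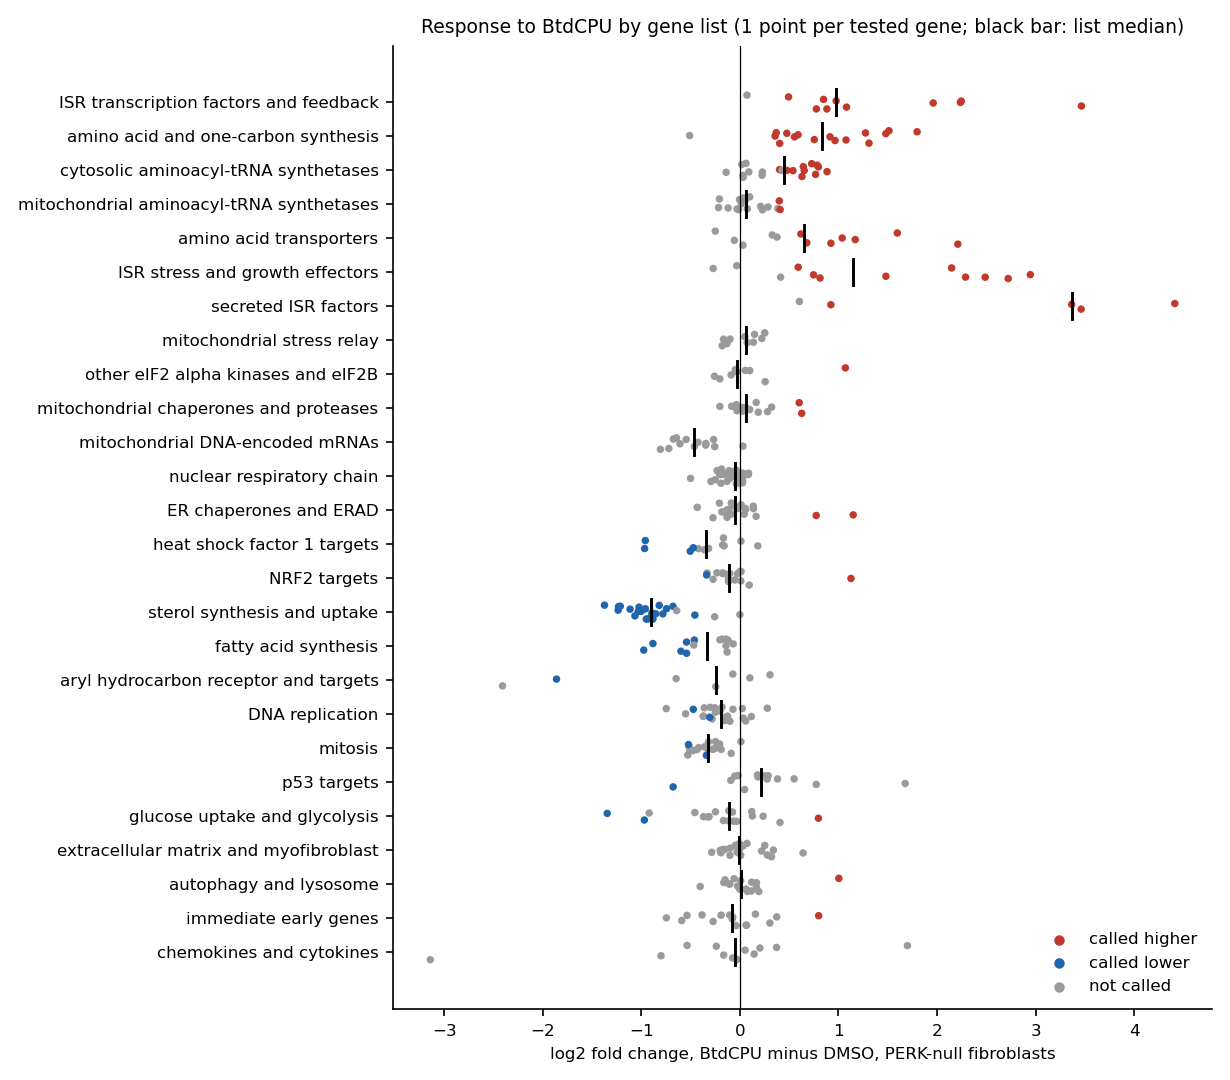
Log2 fold change of BtdCPU minus DMSO in PERK-null fibroblasts (x axis) for each tested gene of 26 lists (y axis), 1 point per gene, coloured by the edgeR call, with the list median as a black bar. The 6 lists of ISR genes lie to the right, the sterol list lies to the left with a median of -0.90, and most other lists centre near 0.

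The ISR was followed in 6 lists, 76 genes in all. Of these, 56 rose (2.55% of all tested genes did), none fell and 20 did not pass the threshold. The median log2 fold change of the 76 was 0.75, where the median over all tested genes was 0.00. In 61 of the 76, every BtdCPU library lay above every DMSO library, which 13.7% of all tested genes also did. Called rises ran from 0.36 (Phgdh) to 3.47 (Trib3) on the log2 scale, leaving aside Fgf21 and Gdf15, which were near 0 with DMSO. Leaving out 1 library at a time gave 48 to 51 called rises.

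ATF4 and its partners bind a composite element in target promoters, written here as TGATGNAA on either strand, where N is any base. RefSeq promoter entries of GRCm38.p6 (250 bases before to 50 after a gene's start) were searched for these letters. Windows of 16 bases either side of the match follow for 6 ISR genes of different roles that rose with BtdCPU, each 5′ to 3′ with the match in capitals, since these are the genes on which the results below turn.
Atf3 (chr1:191183420-191183459, plus strand): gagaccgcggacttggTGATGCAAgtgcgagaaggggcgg
Trib3 (chr2:152344023-152344062, plus strand): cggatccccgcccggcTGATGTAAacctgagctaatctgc
Asns (chr6:7693209-7693248, minus strand): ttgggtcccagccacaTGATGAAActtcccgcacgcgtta
Slc7a11 (chr3:50443656-50443695, minus strand): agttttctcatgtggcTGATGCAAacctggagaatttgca
Chac1 (chr2:119351033-119351072, minus strand): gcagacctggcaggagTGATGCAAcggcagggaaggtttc
Fgf21 (chr7:45615606-45615645, plus strand): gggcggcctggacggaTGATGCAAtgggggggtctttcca

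The Asns match reads along the gene and begins at position -23 from its start, while those of Atf3, Chac1 and Fgf21 read on the opposite strand at positions -110, -193 and -139. In Trib3 it lies after the start, at position 14. The Slc7a11 entry holds a second match on the other strand at position -47, beside the printed one at -66. Among ISR genes with a promoter entry, 18 of 57 held the letters, and all 18 were among the genes that rose: Aars, Asns, Atf3, Chac1, Fgf21, Gars, Got1, Iars, Jdp2, Nupr1, Pck2, Pycr1, Slc1a4, Slc7a11, Tars, Trib3, Vldlr and Yars. Across all tested genes with an entry, 35 of 294 called higher held the letters (11.9%), against 2 of 125 called lower (1.6%) and 342 of 11158 in all (3.07%). Idi1, a gene of the sterol list, was among those called lower that held the letters. With the variable base set to C the shares were 7.14%, 0.0% and 0.896%. Among all 32851 promoter entries, 3.97% held TGATGNAA. A match is a description of letters and no test of binding was made.

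Of the transcription factors of the ISR and its feedback genes, 10 of 11 rose, with a median of 0.98. Atf4, the central factor, stood at 1209, 993 and 1016 CPM with BtdCPU and at 533, 646 and 566 CPM with DMSO. The groups did not overlap, and the log2 difference was 0.88 (SE 0.11, edgeR adjusted p 1.7e-06). Ddit3 encodes CHOP, a factor tied to prolonged stress. It stood at 105, 95.8 and 94.8 CPM with BtdCPU against 22.2, 21.6 and 18.5 CPM with DMSO, a rise of 4.75-fold (log2 2.25, SE 0.21, edgeR adjusted p 2e-08). In the RefSeq annotation Ddit3 overlaps Mars and Mbd6, and the deposited counts may share their reads. Atf3, an early stress factor, went from 2.19, 2.92 and 2.69 CPM to 15, 10.2 and 11.7 CPM (log2 2.24, SE 0.22, edgeR adjusted p 4.2e-08). Trib3, a pseudokinase that restrains ATF4 and CHOP, showed the largest rise of this list, from 14.0, 17.4 and 9.52 CPM to 171, 146 and 136 CPM. Its change was 11.1-fold (log2 3.47, SE 0.29, edgeR adjusted p 1.2e-09). Ppp1r15a, the stress-induced subunit GADD34 of the eIF2 alpha phosphatase, rose from 30.7, 35.9 and 32.3 CPM to 144, 117 and 123 CPM, whereas its constitutive counterpart Ppp1r15b differed by 0.07 (edgeR adjusted p 0.80). Jdp2, a bZIP partner, rose by 1.08 (SE 0.12), and Cebpg, Nupr1, Atf5 and Cebpb were also called higher. For each of the 10 called genes, every BtdCPU library lay above every DMSO library, which 13.7% of all tested genes also did. The calls rest on the same libraries, so this is no separate support. In Atf4, Atf3, Trib3 and Ddit3 the first BtdCPU library was the highest of its group.

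**Figure D2:**
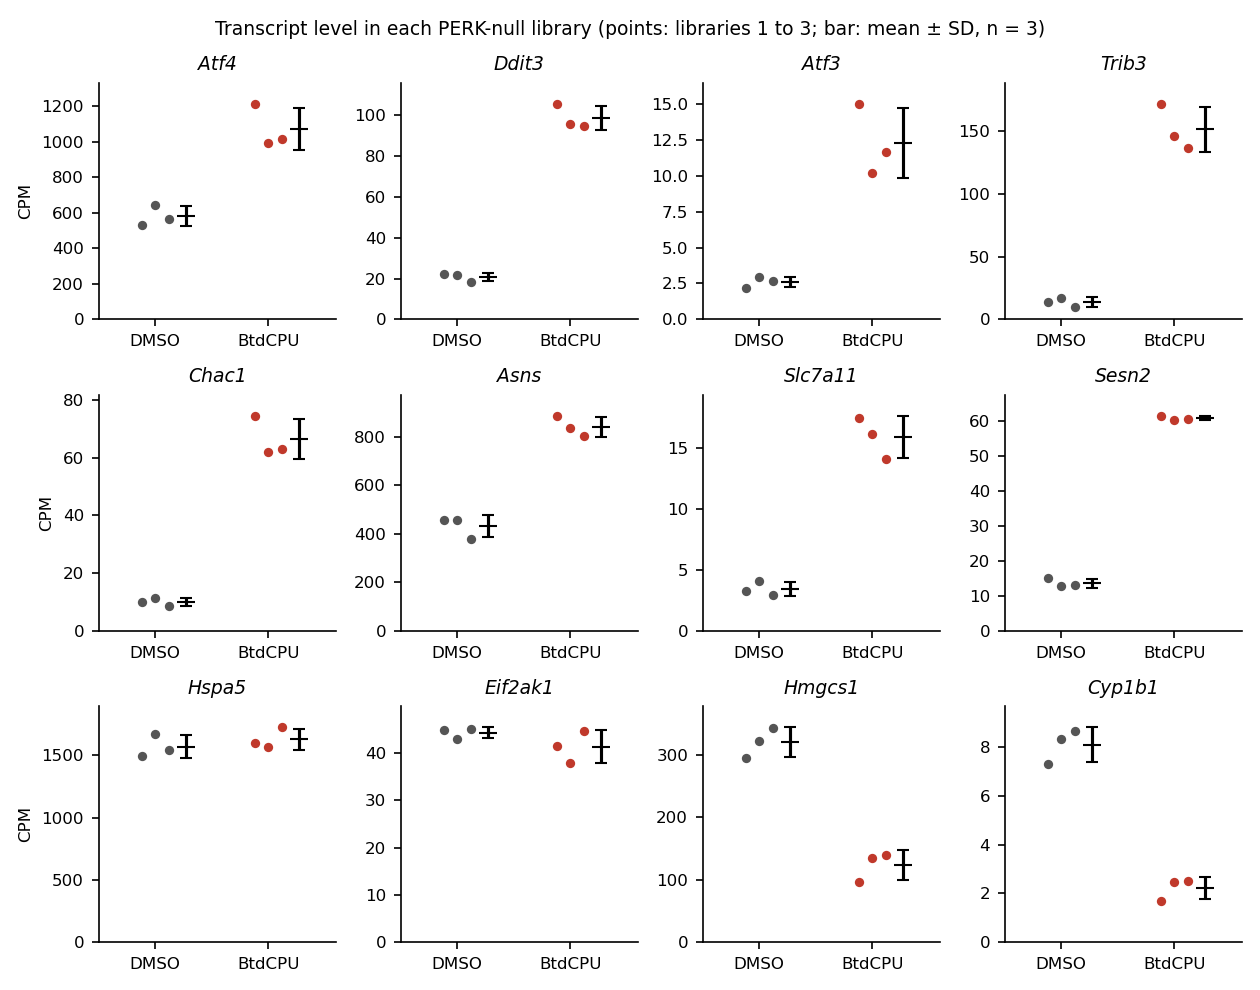
CPM (y axis, linear from 0) of 12 genes in each PERK-null DMSO and BtdCPU library, with points for libraries 1 to 3 from left to right and bars for the mean ± SD (n = 3). The 8 ISR genes of the upper 2 rows separate fully between the groups, Hspa5 and Eif2ak1 overlap, and Hmgcs1 and Cyp1b1 are lower in every BtdCPU library.

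Genes of amino acid and folate metabolism rose in 15 of 16 cases, with a median of 0.83. Asns makes asparagine and is a standard ATF4 readout. Its level was 886, 838 and 804 CPM with BtdCPU against 457, 459 and 380 CPM with DMSO (log2 0.97, SE 0.10, edgeR adjusted p 1.8e-07). Gpt2, the mitochondrial alanine transaminase, rose from 33.4, 34.2 and 31.9 CPM to 112, 120 and 113 CPM (log2 1.80, SE 0.17). The mitochondrial folate enzymes Aldh1l2 and Mthfd2 rose by 1.48 (SE 0.15) and 1.08 (SE 0.11), and Aldh18a1, which opens proline synthesis, by 0.91 (SE 0.11). Pck2, the mitochondrial PEP carboxykinase, stood at 373, 375 and 352 CPM with BtdCPU and at 150, 164 and 140 CPM with DMSO. The serine pathway moved less. Psat1, its transaminase, rose by 0.40 (SE 0.11, edgeR adjusted p 0.033) and lost the call when any 1 of the 6 libraries was left out, whereas Asns and Pck2 kept it in every alternative. Cbs, at 0.107 to 0.524 CPM in the 6 libraries, was the member that did not pass.

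Cytosolic aminoacyl-tRNA synthetases, which charge tRNA with amino acids, rose in 11 of 20 cases. Aars, for alanine, went from 813, 827 and 819 CPM to 1447, 1423 and 1403 CPM, the lowest p of the list (log2 0.80, SE 0.09, edgeR adjusted p 2e-07). Cars, Nars, Sars, Gars and Tars rose by 0.64 to 0.88 on the log2 scale. Eprs, Yars, Lars, Mars and Iars were the others called. The remaining 9 (Wars, Vars, Farsa, Farsb, Qars, Hars, Kars, Dars and Rars) had log2 differences between -0.14 and 0.43, none past the threshold. Of 17 mitochondrial synthetases, 2 were called higher (2.55% of all tested genes were), Tars2 at 0.40 (SE 0.10) and Nars2 at 0.41 (SE 0.10). Both lost the call in several of the fits without 1 library. Aars overlaps Ddx19b and Mars overlaps Ddit3 in the annotation.

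Amino acid transporters rose in 7 of 12 cases. Slc7a11, the cystine importer, stood at 17.4, 16.1 and 14.1 CPM with BtdCPU against 3.28, 4.08 and 2.93 CPM with DMSO (log2 2.21, SE 0.26, edgeR adjusted p 1.2e-06). Slc6a9, for glycine, rose by 1.6 (SE 0.20), Slc7a5, for large neutral amino acids, by 1.17 (SE 0.15), and its heavy chain Slc3a2 was called as well. Slc7a1 (arginine and lysine), Slc1a4 (alanine, serine and cysteine) and Slc38a1 (glutamine) rose by 1.04, 0.92 and 0.62, the last a call lost without DMSO library 1 or without DMSO library 2. The 5 that did not pass were Slc1a5, Slc7a6, Slc7a3, Slc38a2 and Slc43a1, and the glutamine transporter Slc38a2 differed by -0.06 (SE 0.11).

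Stress and growth effectors rose in 9 of 12 cases. Sesn2, a sestrin that restrains the growth kinase mTORC1, had the smallest p of all genes on the ISR lists. It stood at 61.6, 60.4 and 60.7 CPM with BtdCPU and at 15.2, 12.8 and 13.3 CPM with DMSO (log2 2.15, SE 0.09, edgeR adjusted p 1.7e-17). Chac1 degrades glutathione and went from 10.1, 11.4 and 8.66 CPM to 74.4, 62.0 and 62.8 CPM, 6.6-fold. Gadd45a, a growth arrest gene, went from 8.93, 7.83 and 8.50 CPM to 74.7, 65.4 and 54.8 CPM (log2 2.95, SE 0.23, edgeR adjusted p 3.3e-10). It overlaps the annotated RNA E230016M11Rik. Vldlr, a lipoprotein receptor, rose by 2.29 (SE 0.18), Ndrg1 by 1.48 (SE 0.17) and the tRNA exporter Xpot by 0.59 (SE 0.10). Bbc3, Soat2 and Eif4ebp1 were called higher too. Ddit4, Mknk2 and the death receptor Tnfrsf10b did not pass, at 0.41, -0.27 and -0.03.

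Among secreted ISR factors, 4 of 5 were called higher. Adm2 (adrenomedullin 2) went from 0.628, 0.303 and 0.108 CPM to 4.15, 3.22 and 3.42 CPM (log2 3.37, SE 0.43, edgeR adjusted p 3.8e-06). The metabolic hormone Fgf21 was read with 6, 0 and 0 counts in the DMSO libraries and stood at 1.20, 1.11 and 1.38 CPM with BtdCPU (edgeR adjusted p 0.00075). Gdf15, another stress hormone, was at the floor in DMSO, with 3 counts or fewer in each library and 5 in all, against 60 counts in the BtdCPU libraries. With 3 counts allowed in each DMSO library this is at least 6.67-fold higher. Vegfa, an angiogenic factor, rose from 32.6, 37 and 34.0 CPM to 73.0, 63.8 and 59.5 CPM. Stc2 stood at 37.5, 39.3 and 33.2 CPM against 21.6, 26.2 and 24.6 CPM (log2 0.60, SE 0.20, edgeR adjusted p 0.089), without overlap and short of the threshold.

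Few genes upstream of ATF4 passed (3.59% of all tested genes did). None of 10 genes of the mitochondrial relay to HRI passed by edgeR, with log2 differences from -0.18 to 0.25. Eif2ak1, the gene of HRI, stood at 41.5, 37.9 and 44.7 CPM with BtdCPU and at 44.9, 43.0 and 45.1 CPM with DMSO (edgeR adjusted p 0.70), and it overlaps Aimp2 and Ankrd61. Dele1, listed under its older name 0610009O20Rik, differed by 0.25 (SE 0.12, edgeR adjusted p 0.32). Of 9 genes for the other kinases and eIF2B, the exchange factor that phosphorylated eIF2 blocks, only Impact passed. This inhibitor of GCN2 activation went from 0.956, 0.744 and 0.995 CPM to 2.35, 1.69 and 1.63 CPM (log2 1.07, SE 0.25), and the call was lost without BtdCPU library 1 or without DMSO library 2.

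Genes for ER chaperones and degradation factors are raised mainly, though not solely, by the other arms of the unfolded protein response. Of 24 such genes, 2 rose (2.55% of all tested genes did), none fell and 22 did not pass. Hspa5 (BiP), the main ER chaperone, stood at 1600, 1561 and 1721 CPM with BtdCPU and at 1494, 1670 and 1540 CPM with DMSO (log2 0.05, SE 0.14, edgeR adjusted p 0.93), and it overlaps Rabepk. Dnajb9, a target of XBP1s, differed by -0.43 (SE 0.16, edgeR adjusted p 0.16). Herpud1, an ER degradation factor, rose from 49.3, 55.0 and 63.2 CPM to 109, 119 and 144 CPM (log2 1.15, SE 0.15). Among 19 genes of this list with a promoter entry, Herpud1 alone held the letters TGATGNAA. Ero1l, an ER oxidase, rose by 0.77 (SE 0.19, edgeR adjusted p 0.014), and the call was lost without BtdCPU library 1 or without DMSO library 3. Which arm lay behind these 2 rises was not tested.

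Genes of sterol synthesis fell. Of 25 genes of sterol synthesis and uptake, 22 were called lower and none higher, with a median log2 difference of -0.90 and with 23 lower in every BtdCPU library than in any DMSO library (11.9% of all tested genes were). Hmgcs1, which makes HMG-CoA, stood at 96.1, 134 and 140 CPM with BtdCPU against 295, 323 and 343 CPM with DMSO. Its fall was the deepest of the list (log2 -1.37, SE 0.19, edgeR adjusted p 7.6e-06). Sqle, the squalene epoxidase, stood at 156, 195 and 222 CPM against 358 to 397 CPM in the DMSO libraries (log2 -1.0, SE 0.13, edgeR adjusted p 6.9e-06). Along the pathway, Idi1, Mvd, Msmo1, Nsdhl and Hsd17b7 changed by -1.24, -1.11, -0.96, -1.07 and -1.23. Insig1, which holds the sterol sensor in the ER and is itself a target of SREBP2, stood at 16, 20.6 and 22.4 CPM against 41.9, 46.7 and 48.1 CPM. Srebf2, the gene of SREBP2, changed by -0.46 (SE 0.11) and was the smallest of the called falls. Members not called were Tm7sf2 at -0.64 (edgeR adjusted p 0.10), Ebp at -0.26 and 1 gene with no count in any of the 6 libraries.

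**Figure D3:**
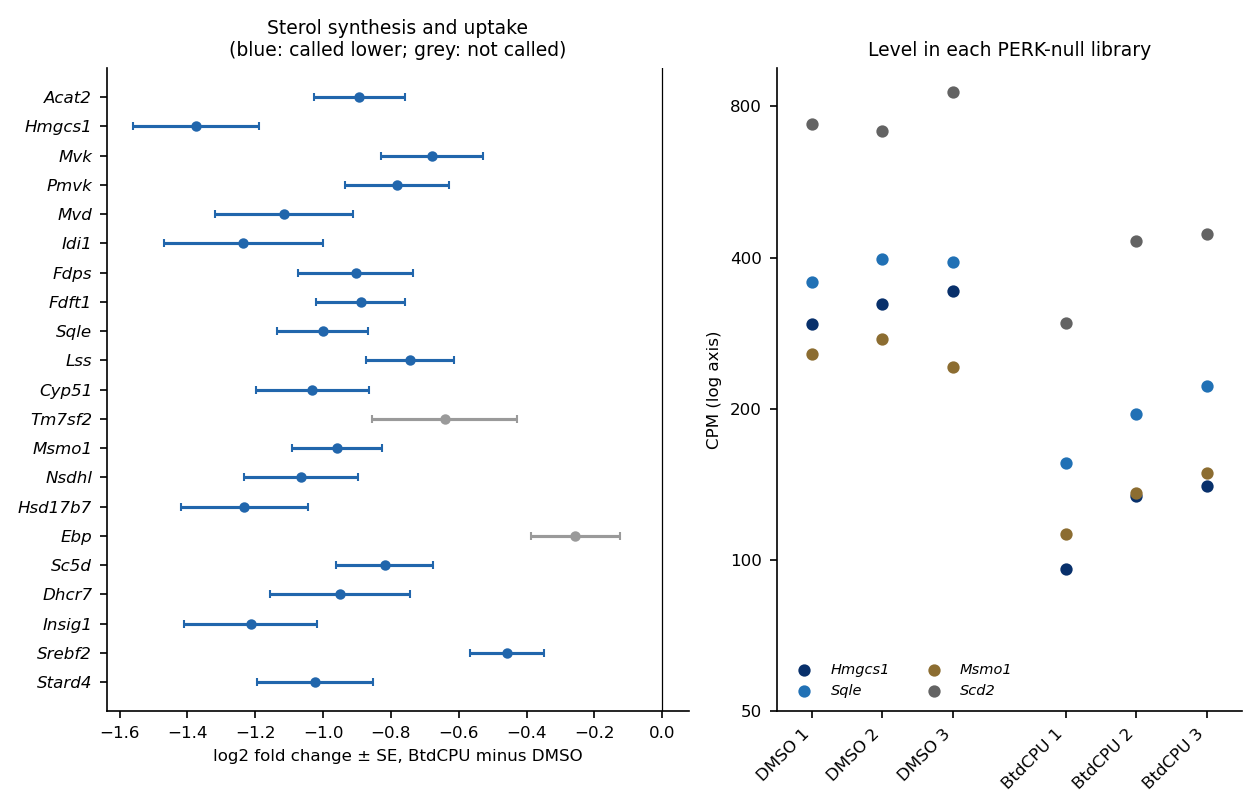
Left, log2 fold change ± SE of BtdCPU minus DMSO in PERK-null fibroblasts for genes of the sterol list, enzymes in pathway order from the top and then regulators, blue where called lower. Right, CPM on a log axis of Hmgcs1, Sqle, Msmo1 and Scd2 in each library. BtdCPU library 1 is the lowest for each of these 4 genes, and the list median without it was -0.80.

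Within the BtdCPU group the first library was the lowest for Hmgcs1, Sqle, Msmo1 and Insig1 and the highest for Atf4, Trib3 and Chac1. Other rises, such as those of Gpt2, Pck2, Herpud1 and Fgf21, were highest in another BtdCPU library. Without the first library, 20 sterol genes were still called lower and the list median was -0.80. Fatty acid synthesis moved the same way in part, with 6 of 14 genes lower and none higher (median -0.33). Scd2, a stearoyl-CoA desaturase, stood at 296, 431 and 445 CPM against 739, 713 and 854 CPM (log2 -0.98, SE 0.16, edgeR adjusted p 0.00013). Elovl6, Fads2, Acsl3, Scd1 and Acly changed by -0.88, -0.60, -0.54, -0.54 and -0.46, and Elovl6 and Scd1 lost the call without BtdCPU library 1. Fdft1 overlaps Ctsb, Acsl3 overlaps Utp14b and Scd2 overlaps a microRNA gene. The letters TCACNCCAC of a sterol element were found in 2 of 125 promoter entries of genes called lower (1.6%) and in 1.39% of those of all tested genes. Among 17 sterol-list genes with an entry, Hmgcs1 alone held it, at position -137. The other gene called lower with it was Sesn1, a p53 target. The Hmgcs1 window is shown because this gene fell most of the sterol list, with the match in capitals.
Hmgcs1 (chr13:119690198-119690238, plus strand): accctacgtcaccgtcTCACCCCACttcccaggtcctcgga

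Both mitochondrial rRNAs rose, and 4 of 18 mitochondrial tRNA genes were called lower. The mitochondrial 12S rRNA, listed as Rnr1, stood at 1736, 1360 and 1661 CPM with BtdCPU and at 423, 474 and 301 CPM with DMSO (3.97-fold, log2 1.99, SE 0.23, edgeR adjusted p 7.8e-07). The 16S rRNA, Rnr2, was chosen after its values were seen and stood at 4239, 2784 and 3609 CPM against 1011, 1076 and 737 CPM (log2 1.91, SE 0.28, edgeR adjusted p 4e-05). Together they made 0.437% to 0.619% of a BtdCPU library and 0.108% to 0.161% of a DMSO library. Calls of the 13 mRNAs of mitochondrial DNA depended on the fit: none passed in the fit over all libraries, while 9 were called lower with only the compared groups, 8 with the 18 PERK-null libraries, 8 with no filter on low counts, 4 with a replicate block and 2 with DESeq2. In the fit over all libraries 12 had a negative log2 difference, with a median of -0.46, and 7 had an unadjusted p below 0.05, as did 2378 of all 16065 genes. In 9 of them every BtdCPU library was lower than every DMSO library (11.9% of all tested genes were). CYTB, a subunit of complex III, had the lowest p, at 2672, 2263 and 2259 CPM against 4659, 4219 and 3709 CPM (log2 -0.81, SE 0.26, edgeR adjusted p 0.080), and ND3 was the member with a positive value, 0.03. The 13 mRNAs summed to 2.86% to 3.25% of the counts with BtdCPU and 3.44% to 4.32% with DMSO. Of 18 mitochondrial tRNA genes tested, 4 were called lower (1.04% of all tested genes were) and none higher. Overlap with neighbouring genes was not checked on mitochondrial DNA, so these counts may share reads with neighbouring transcripts. TrnA, for alanine, stood at 3.88, 3.33 and 3.29 CPM against 8.28, 8.21 and 6.48 CPM (log2 -1.13, SE 0.19), TrnL1 changed by -1.06 (SE 0.27), and TrnY and TrnW, named after their values were seen, by -1.44 (SE 0.26) and -1.0 (SE 0.22). TrnL1 lost the call without any 1 BtdCPU library and without DMSO library 1, and TrnW lost it without DMSO library 1.

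Ribosomal RNA and tRNA are removed or poorly kept by most mRNA library preparations, and the protocol in the labels names a ribosomal depletion step as well as an mRNA enrichment step. The part of that step in the rise of Rnr1 and Rnr2 was not tested. Of nuclear genes of the respiratory chain, 0 of 38 were called by edgeR, with 2 at an unadjusted p below 0.05 and a median of -0.05. Of 15 mitochondrial chaperones and proteases, 2 rose (2.55% of all tested genes did). Lonp1, the matrix protease, went from 237, 257 and 265 CPM to 378, 394 and 400 CPM (log2 0.63, SE 0.12, edgeR adjusted p 0.00078), and the co-chaperone Dnaja3 rose by 0.60 (SE 0.11).

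**Figure D4:**
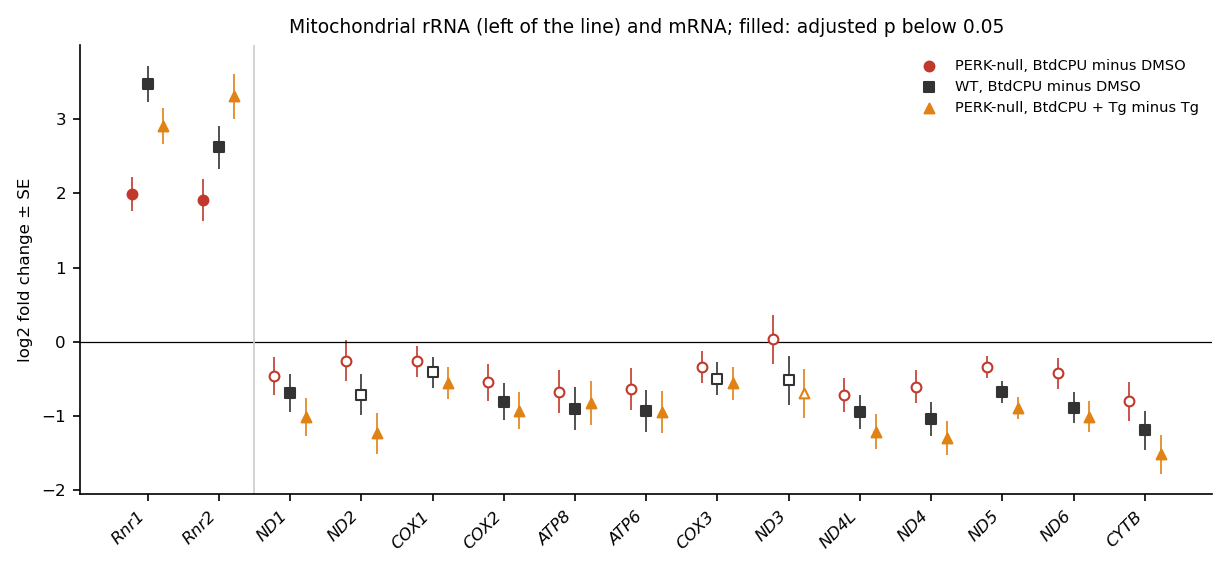
Log2 fold change ± SE (y axis) of the 2 mitochondrial rRNAs and 13 mRNAs (x axis) for BtdCPU minus DMSO in PERK-null and WT fibroblasts and for BtdCPU with Tg minus Tg in PERK-null fibroblasts, filled where the edgeR adjusted p is below 0.05. The rRNAs are higher in all 3 comparisons, at 1.99 and 1.91 in PERK-null cells without Tg, and nearly all mRNA values are negative.

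Other lists moved in a few members, where 2.55% of all tested genes were called higher and 1.04% lower. Heat shock factor 1 targets held 4 called falls of 12 and no rise. Hspa8, the constitutive HSC70, stood at 681, 746 and 739 CPM against 1016, 1030 and 1026 CPM (log2 -0.50, SE 0.08, edgeR adjusted p 0.0001). Dnajb1 changed by -0.47 (SE 0.11), and the near-identical copies Hspa1a and Hspa1b, whose reads cannot be split with certainty, by -0.97 (SE 0.26) and -0.96 (SE 0.25). These last 3 calls were each lost without some single libraries. Cyp1b1, a cytochrome P450 induced by the aryl hydrocarbon receptor, had the deepest fall by the naming rule, at 1.69, 2.48 and 2.50 CPM against 7.29, 8.32 and 8.63 CPM (log2 -1.86, SE 0.21, edgeR adjusted p 4.8e-07). It was the sole member of that list to pass among 7 tested, and Cyp1a1 stood at 0 to 0.107 CPM against 0.165 to 0.511 CPM (edgeR adjusted p 0.16). The dioxin element letters TNGCGTG were in 9.6% of promoter entries of genes called lower and in 8.94% of all.

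Of 17 NRF2 targets, Hmox1 (haem oxygenase) rose from 51.5, 53.4 and 56.9 CPM to 116, 115 and 123 CPM (log2 1.13, SE 0.16). Pgd was called lower at -0.34 (edgeR adjusted p 0.049), a call lost in most other fits. Over all tested genes 2.55% were called higher and 1.04% lower. Sqstm1 (p62) alone passed among 17 autophagy and lysosome genes, from 376, 419 and 345 CPM to 799, 777 and 711 CPM. Myc alone passed among 16 immediate early genes, from 119, 120 and 134 CPM to 220, 221 and 210 CPM, a call lost without DMSO library 1 or without DMSO library 2. In glucose metabolism Hk2 rose by 0.80 (SE 0.23), while Txnip, which limits glucose uptake, stood at 8.48, 9.91 and 6.30 CPM against 20.6, 19.0 and 23.2 CPM (log2 -1.35, SE 0.34, edgeR adjusted p 0.019). Its antisense neighbour Gm15441 changed by -1.24 (SE 0.29) and its relative Arrdc4 by -0.97 (SE 0.27, groups overlapping). Reads of Txnip and Gm15441 cannot be told apart unless strand was used in counting, and the calls of all 4 genes were lost without some single libraries.

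Few proliferation genes passed, where 1.04% of all tested genes were called lower. Of 24 replication genes, Rrm2 and Mcm5 were called lower, at -0.47 (SE 0.13) and -0.31 (SE 0.09). Of 20 mitosis genes, Kif11 and Ccna2 were, at -0.52 (SE 0.11) and -0.34 (SE 0.09). In the replication list 19 of 24 log2 differences were negative, while 22 of the 24 did not pass. There 14 genes were lower in every BtdCPU library than in any DMSO library (11.9% of all tested genes were) and 1 was higher (13.7%). In the mitosis list 19 of 20 log2 differences were negative and 16 genes were lower in every BtdCPU library than in any DMSO library (11.9% of all tested genes were), while 18 of the 20 did not pass. Kif11 stood at 262, 238 and 217 CPM against 370, 352 and 306 CPM. Rrm2, Mcm5 and Ccna2 lost the call when single libraries were left out. Among 14 p53 targets Sesn1 fell, from 40.9, 39.9 and 36.7 CPM to 25.2, 22.8 and 25.4 CPM, a call lost in 5 of the 6 fits without 1 library, while its relative Sesn2 rose. No gene passed among 22 of extracellular matrix and contraction (2 at an unadjusted p below 0.05) or among 12 chemokines and cytokines (0 at that level) by edgeR.

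The same compound was given to WT fibroblasts, in libraries that share none with the PERK-null comparison. There 3571 genes were called (22.2%), 2075 higher (12.9%) and 1496 lower (9.31%). Of the 410 genes that rose in PERK-null cells, 341 (83.2%) also rose in WT cells, where they are 16.4% of the calls. Of the 167 that fell, 138 (82.6%) also fell, 9.22% of the WT calls, and no gene was called in opposite directions. On the ISR lists 64 of 76 rose and 2 fell in WT cells, with a median of 1.19. The 2 were Mknk2 at -0.64 and the transporter Slc7a6 at -0.51, which did not pass in PERK-null cells. In WT cells 24 of 25 sterol genes fell with a median of -1.12.

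In the WT BtdCPU group, library 2 stood apart. It showed a weaker response than libraries 1 and 3, with Atf3 at 13 CPM against 33.6 and 32.1 CPM, Stc2 at 26.4 against 55.3 and 46.3 CPM, and Rnr1 at 858 against 1583 and 1425 CPM. The WT line also differs from the PERK-null line in Xist and Ddx3y, so line and PERK cannot be told apart in any genotype difference. The response differed between the genotypes for 32 genes (0.199%). In 6 of them the PERK-null value was above the WT one (0.0373%) and in 26 below it (0.162%), beside 1626 at an unadjusted p below 0.05. Without WT BtdCPU library 2 the count was 845, without library 1 of that group 14, without library 3 16, and in a fit of just the 4 groups compared 2.

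On the ISR lists, 8 genes had a smaller rise in PERK-null cells and 1 a larger one, with a median difference of -0.46. Stc2, a secreted stanniocalcin, changed by 2.75 (SE 0.22) in WT cells and by 0.60 in PERK-null cells. The difference of -2.14 (SE 0.29, edgeR adjusted p 0.00016) passed in all 18 alternatives. Atf3 differed by -2.27 (SE 0.34), with DMSO levels of 1.09, 1.1 and 1.27 CPM in WT cells and 2.19, 2.92 and 2.69 CPM in PERK-null cells. Slc7a5, Slc7a1, Mthfd2 and Asns differed by -1.14, -1.2, -0.86 and -0.67, and the calls of Slc7a1 and Asns passed in 5 and 7 of 18 alternatives. Slc3a2 and Yars complete the 8. Sesn2 rose more in PERK-null cells. It rose by 2.15 (SE 0.09) in PERK-null and by 1.28 (SE 0.09) in WT cells, so that the responses differed by 0.87 (SE 0.12, edgeR adjusted p 0.0002), from WT levels of 35.3, 34.5 and 31.3 CPM in DMSO to 82.3, 74.5 and 88.1 CPM. Without WT BtdCPU library 2 the median difference of the ISR lists was -0.57, with 36 genes lower and 2 higher in PERK-null cells. Without library 1 of that group the median was -0.36 and without library 3 it was -0.41, each with 4 genes lower and 1 higher. In the fit of just the 4 groups compared, Stc2 alone was lower and none was higher.

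**Figure D5:**
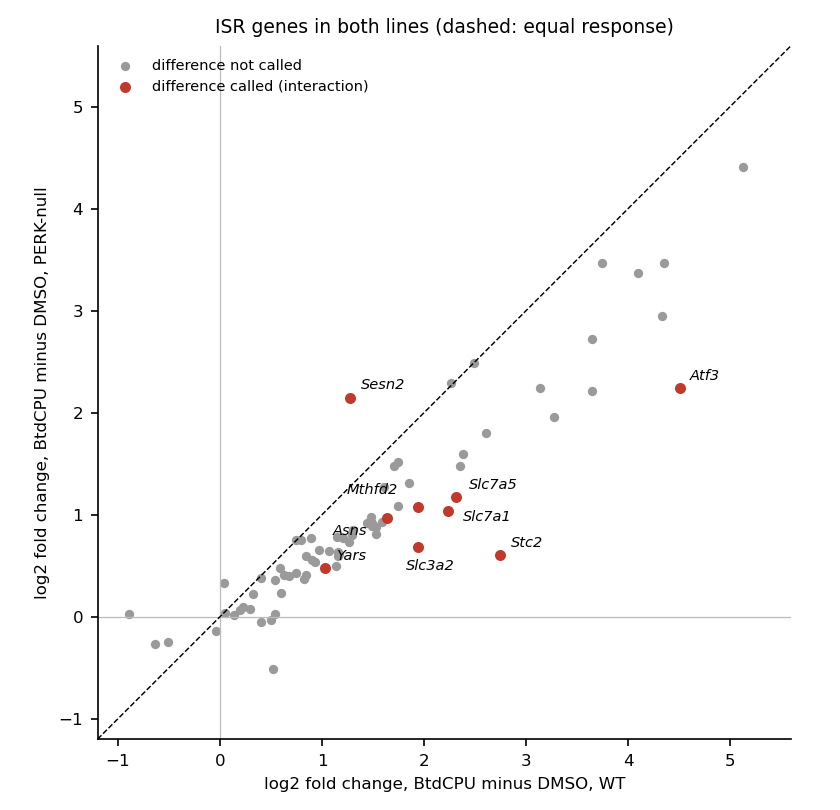
Log2 fold change of BtdCPU minus DMSO in WT (x axis) against PERK-null fibroblasts (y axis) for the 76 ISR genes, with the line of equal response dashed and the 9 genes whose difference was called in red. Most points lie under the line, and Sesn2 at 2.15 against 1.28 lies above it.

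Off the ISR lists, Cxcl10 (a chemokine) rose by 2.63 in WT cells and stood at -0.24 without PERK, which is a difference of -2.87 (SE 0.52), and the clock-linked Ciart, which overlaps C920021L13Rik, differed by -2.0 (SE 0.31). Ero1l differed by -1.40 (SE 0.27) and Rnr1 by -1.49 (SE 0.32), the latter past the threshold in 7 of 18 alternatives. By the naming rule the 4 largest positive differences were those of Acot1, Gcnt1, Emx2os and Plau. Acot1 meets the rule's minimum level through the WT libraries, and its value rests on a PERK-null level near the floor. Acot1, an acyl-CoA thioesterase near-identical to Acot2, rose from 0.191, 0.0551 and 0.242 CPM to 0.937, 1.03 and 0.950 CPM in PERK-null cells and stood at 46.5 to 55.0 CPM in the WT libraries with or without BtdCPU, a difference of 2.46 (SE 0.35). Plau (urokinase), Gcnt1 and Emx2os fell in WT cells, by -0.85, -1.6 and -0.59, and did not pass in PERK-null cells, at 0.23, -0.08 and 0.58.

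Adding Tg changed how far BtdCPU moved PERK-null cells, again in libraries that share none with the comparison above. BtdCPU with Tg against Tg gave 5723 called genes (35.6%), 2783 higher (17.3%) and 2940 lower (18.3%). Of the genes that rose with BtdCPU alone, 370 of 410 (90.2%) also rose there, 13.3% of those calls, and of those that fell, 148 of 167 (88.6%) also fell, 5.03% of the calls, with none in opposite directions. ISR genes were called higher in 65 of 76 cases and lower in 3 (Ddit4, Mknk2 and Qars), and 24 of 25 sterol genes were lower. Across both genotypes and with Tg, 458 of the 577 genes were called in the same direction.

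The response with Tg minus the response without it was called for 1187 genes (7.39%), 644 higher (4.01%) and 543 lower (3.38%). On the ISR lists 13 genes rose more in the presence of Tg and 1 rose less. Atf3 went from 3.90, 4.96 and 4.57 CPM with Tg to 48.8, 49.3 and 55.3 CPM with both, a difference in response of 1.27 (SE 0.30, edgeR adjusted p 0.0076). Ppp1r15a differed by 1.39 (SE 0.30), Slc7a1 by 0.91 (SE 0.27), Vegfa by 0.83 (SE 0.20) and Mthfd2 by 0.53 (SE 0.16). Sesn2 again went the other way, at -0.51 (SE 0.12). Atf4 rose by 0.88 without and by 0.93 with Tg (difference 0.04, SE 0.15, edgeR adjusted p 0.93). Cyp1b1 fell further with Tg, from 23.5, 19.6 and 22.7 CPM to 1.69, 2.21 and 1.22 CPM (difference -1.83, SE 0.30). The 4 largest positive differences were those of Dusp4, Gm36393, Snhg12 and Bmpr1b, from 1.80 to 1.90, and the 4 largest negative ones those of Mest, Wnt9a, C430049B03Rik and Tmem119, from -2.31 to -2.05. None of these last 4 passed with BtdCPU alone.

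Halofuginone, which reaches the same pathway through GCN2, was compared directly with BtdCPU in PERK-null cells. The labels give neither dose nor time for either compound, and the comparison uses the same 3 BtdCPU libraries as above, so its values are set beside those against DMSO without an overlap of calls. It called 5793 genes (36.1%), 2881 higher (17.9%) and 2912 lower (18.1%) with halofuginone. Of the 76 ISR genes, 51 were higher and 4 lower (Atf4, Mknk2, Pck2 and Qars) with halofuginone, with a median difference of 0.51. Atf4 stood at 870, 869 and 808 CPM with halofuginone, under all 3 BtdCPU libraries (difference -0.34, SE 0.11, edgeR adjusted p 0.013). Trib3 stood at 203, 208 and 170 CPM, with a difference of 0.36 (SE 0.26, edgeR adjusted p 0.30), and Gadd45a at 265, 295 and 322 CPM, with a difference of 2.18 (SE 0.22).

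Against DMSO, halofuginone called 6785 genes (42.2%), 3413 higher (21.2%) and 3372 lower (21%), with 64 of the 76 ISR genes higher and 2 lower. Txnip moved in opposite directions with the 2 compounds. It stood at 252, 181 and 339 CPM with halofuginone, a log2 difference of 3.62 (SE 0.35) from DMSO and of 4.97 (SE 0.38, edgeR adjusted p 3.2e-11) from BtdCPU, where BtdCPU had lowered it by -1.35 from DMSO. Gm15441 differed between the compounds by 4.73 (SE 0.30) and Arrdc4 by 3.90 (SE 0.24). Rnr1 stood at 224, 232 and 269 CPM with halofuginone, a difference of -2.71 (SE 0.24) from BtdCPU and of -0.73 (SE 0.22) from DMSO, and Rnr2 at 747, 658 and 892 CPM, -2.21 (SE 0.29) from BtdCPU. Cyp1b1 stood at 9.09, 7.88 and 11.2 CPM with halofuginone, near its DMSO level (log2 0.21, SE 0.19, edgeR adjusted p 0.40). Sterol genes lay lower still with halofuginone in 12 of 25 cases and higher in 1. Hmgcs1 stood at 46.1, 52.0 and 40.0 CPM with halofuginone, a difference of -1.43 (SE 0.19), and Dhcr7 at 4.69, 6.24 and 3.92 CPM (difference -1.90, SE 0.22), whereas Msmo1 differed by 0.13 (SE 0.13, edgeR adjusted p 0.48). Hspa5 was higher with halofuginone, at 2671, 2688 and 3019 CPM (difference 0.78, SE 0.14). The other genes that the naming rule picks here, Crlf2, Zfp105, Serpinb8, Cers4 and Ddx3y, had 13 counts or fewer in each of the 6 PERK-null BtdCPU and DMSO libraries, and no fold is given for them.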

How the data were processed

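RNA was measured by bulk sequencing of mouse embryonic fibroblasts in 36 libraries, 3 per group. The authors deposited 1 table of estimated counts per gene, unnormalised by its values, in which 0.025 stands for 0. Per the submitters' processing notes GRCm39 and DESeq were named, with no role. The aligner, the counter and its use of strand are not given in the sources used here. Counts were rounded (2.69% of values above 0 were not whole), 27 entries whose symbols had become date numbers were dropped (0.206% to 0.278% of a library), and 86 entries that shared 39 symbols were summed. edgeR 4.0.16 in R 4.3.3 was run with TMM scaling, its default expression filter and quasi-likelihood tests over 12 group means (16065 genes, 24 residual degrees of freedom), with Benjamini-Hochberg adjustment and a threshold of 0.05. Each SE is the absolute log2 fold change divided by the square root of the F statistic of its test. It was not estimated separately from the p-value. DESeq2 1.42.0, other scalings, no filter, a replicate block, fewer groups and each library left out were the alternatives. On simulated data with 16065 genes, the PERK-null comparison recovered 88 of 100 genes changed by 1 on the log2 scale. It recovered 99 of 100 changed by 2. Both sizes of change were in the same simulated data, which gave 10 false calls in all. The changed genes were drawn from those above a minimum expected count. Apart from the change put in, each gene had the PERK-null DMSO mean and the same spread in all 12 groups. The rates therefore do not extend to weakly read genes or to groups that differ in spread. Replicates differed by more than sampling noise (lowest chi-square per degree of freedom 9.06). Genes named were list members past the threshold (up to 6 per list, by p) with a few defining genes, the 12 largest rises and 12 largest falls without overlap at a mean log2 CPM of at least 2 over all 36 libraries, and the 4 largest differences each way in the other comparisons. Members and lists were chosen with earlier results of these data known. Promoter windows come from RefSeq on GRCm38.p6, a build other than the one named in the notes. Some members of the sterol list are not reported here by name.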

Additional observations from a re-analysis of the deposited data

Results flagged for a closer look

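Some responses to BtdCPU differed between the genotypes or with Tg by a test of the difference itself (edgeR, all genes adjusted). Values are log2 differences. In PERK-null minus WT cells, the response was smaller for Cxcl10 (-2.87), Atf3 (-2.27), Stc2 (-2.14), Ciart (-2.0), Rnr1 (-1.49), Ero1l (-1.40), Slc7a1 (-1.2), Slc7a5 (-1.14), Mthfd2 (-0.86) and Asns (-0.67). The value was higher for Acot1 (2.46), Gcnt1 (1.53), Emx2os (1.16), Plau (1.08) and Sesn2 (0.87). Of these 15 differences, those of Acot1 and Stc2 passed in all 18 alternatives, while Slc7a1 passed in 5, Asns and Rnr1 in 7, Emx2os in 8 and Gcnt1 in 9. The value of Acot1 rests on a PERK-null level near the floor, and its reads may be split with those of Acot2.

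In PERK-null cells, the response with Tg minus that without was higher for Dusp4 (1.90), Gm36393 (1.84), Snhg12 (1.84), Bmpr1b (1.80), Myc (1.45), Hk2 (1.4), Ppp1r15a (1.39) and Atf3 (1.27). It was also higher for the mitochondrial asparaginyl-tRNA synthetase Nars2 (0.97), Slc7a1 (0.91), Vegfa (0.83), Dnaja3 (0.64), Mthfd2 (0.53), Xpot (0.51) and Tars (0.42). It was lower for Mest (-2.31), which overlaps Copg2, and for Wnt9a (-2.28), C430049B03Rik (-2.25), Tmem119 (-2.05), Cyp1b1 (-1.83), Gm15441 (-1.62), Pgd (-0.62) and Sesn2 (-0.51). Mthfd2 and Tars passed in 10 of 18 alternatives each.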

How the results depend on the processing

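With BtdCPU alone in PERK-null cells, the 577 calls became 881 with DESeq2, 1577 with a replicate block, 1265 with only the compared groups and 1423 with only the 18 PERK-null libraries in the fit, and 326 to 405 without 1 library. The share of calls that were higher was 62.3% with the block and 59.5% with only the compared groups, against 71.1%. The 32 genotype differences became 314 with no filter on low counts, 161 with DESeq2, 587 with the replicate block, 2 with only the compared groups, and 14 to 845 without 1 library. The 1187 differences with Tg became 2757 with the replicate block, 2840 with only the compared groups, and 760 to 1135 without 1 library. Halofuginone minus BtdCPU gave 4436 to 5455 calls without 1 library and 7329 with the replicate block, against 5793. The mitochondrial mRNAs called lower went from 0 to 8 with no filter, 2 with DESeq2, 4 with the replicate block, 9 with only the compared groups and 8 with the 18 PERK-null libraries. The cause of these shifts was not tested. Called rises on the ISR lists stayed between 48 and 59 and called sterol falls between 20 and 23 in every alternative run. Same-numbered PERK-null BtdCPU and DMSO libraries correlated in their deviations from the group means at 0.0511, 0.0267 and 0.159, at 0.0682, 0.254 and 0.287 in WT cells and at 0.0615, 0.0437 and 0.133 with Tg. Not every value exceeds 0.1, and the labels do not say that a number marks a shared batch, so the block was kept as an alternative. As a hint from the data, each library in these sets correlated best with its own number, except that in PERK-null cells BtdCPU library 1 and DMSO library 2 correlated best with each other (0.104). Of 94 named genes that passed with BtdCPU alone, 70 passed in every alternative that gave a value, 24 lost the threshold in at least 1 and 0 reversed, and of 26 that did not pass, 5 passed in at least 1.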

Other observations

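Several of the largest rises with BtdCPU in PERK-null cells belonged to none of the lists. Acot2, a mitochondrial acyl-CoA thioesterase, stood at 13.7, 11.5 and 10 CPM with BtdCPU and at 1.67, 1.93 and 1.29 CPM with DMSO (log2 2.85, SE 0.27, edgeR adjusted p 2e-08), and reads may be split with its near-identical copy Acot1. Car6, a secreted carbonic anhydrase, went from 0.300, 0.496 and 0.995 CPM to 5.43, 4.04 and 4.59 CPM (log2 2.96, SE 0.51). Cdsn, the adhesion protein corneodesmosin, went from 4.43, 3.86 and 5.92 CPM to 26.9, 20.7 and 37.4 CPM, without overlap.

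Kif21b, a kinesin motor, went from 0.847, 0.827 and 0.995 CPM to 4.87, 4.65 and 6.49 CPM (log2 2.58, SE 0.40). Like Car6, it meets the naming rule's minimum level, a mean over all 36 libraries, through other groups of the series. Fibin rose by 2.60 (SE 0.50) and was higher in each BtdCPU library than in any DMSO library. All 5 genes also rose in WT cells, by 1.74 (Acot2), 5.84 (Car6), 3.82 (Cdsn), 2.57 (Kif21b) and 2.29 (Fibin). Among the falls off the lists, LOC102635781 stood at 43.3, 51.3 and 42.0 CPM against 107, 139 and 107 CPM (log2 -1.37, SE 0.26, edgeR adjusted p 0.00095).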
